A study of Mus musculus with 2 samples.

Results

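The 9 genes described here encode subunits, inhibitors and inducible outputs of the NF-κB system in mouse: Nfkb1, Nfkb2, Rel and Relb, then Nfkbia, Tnfaip3 and Bcl3, then Tnf and Cd83. They were taken as the rows of the expression matrix with exactly these symbols, which gave 9 of 12638 genes. No level or test served as a filter, but the genes were chosen with earlier results of these data known. The study profiled single CD45+ cells enriched for dendritic cells from C57Bl6 mice that carried a subcutaneous MC38-OVAdim tumour on the flank, a colon carcinoma line. The WT mice were Havcr2fl/fl, meaning that they carried loxP-flanked copies of the gene for TIM-3, a checkpoint receptor, with no deletion named. The KO mice are labelled only as KO, and the Cre driver, the cells that it acts in, the deleted exons and the animals' ages were not stated in the labels. There were 2 WT mice (WT1 and WT2) and 2 KO mice (KO1 and KO2). Tumour, draining lymph node (dLN) and non-draining lymph node (ndLN) were taken from each of these 4 mice, which gave 12 samples. Mice with the same number were tagged with CD45 antibodies and run in the same 10x channel.

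NF-κB dimers wait in the cytoplasm bound to inhibitor proteins, of which IκBα, the product of Nfkbia, is the best known. Signals from TNF-family, Toll-like or antigen receptors activate the IκB kinase complex, IκBα is degraded, and dimers of RelA or c-Rel with p50 (from Nfkb1) enter the nucleus. A slower branch runs through the kinases NIK (Map3k14) and IKKα (Chuk), whose activity leads to the processing of the Nfkb2 product p100 to p52, the partner of RelB. The dimers switch on genes that end the signal, Nfkbia and Tnfaip3 (A20) among them, and RelB and c-Rel are known for their parts in dendritic cell and lymphocyte activation.

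Genes of this system are known as targets of the dimers themselves, so the promoter stretches that hold the dimers' motif are shown. RefSeq promoter windows (build GRCm38.p6) were at hand for 6 of the 9 genes, and the 250 bases before each start were searched on both strands for the κB consensus, the motif that the dimers bind. A match was present for 4 of these 6 genes, Nfkb2, Rel, Nfkbia and Tnfaip3, against 8.23% of 27025 genes with a window and 7.25% of 32851 windows. The windows of Tnf and Bcl3 held no match, which says only that these letters are not in that stretch. Overlapping matches on opposite strands were merged into 1 site. The 8 sites are printed below on the gene's own strand, 5′ to 3′, with the match in capitals.
Nfkbia, chr12:55492648-55492707, minus strand, match 29 to 20 bases before the start: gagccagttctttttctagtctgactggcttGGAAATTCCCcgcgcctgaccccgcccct
Nfkb2 start 1, chr19:46304689-46304718, plus strand, 39 to 29 bases before: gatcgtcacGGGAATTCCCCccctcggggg
Nfkb2 start 1, chr19:46304707-46304736, plus strand, 11 to 2 bases before: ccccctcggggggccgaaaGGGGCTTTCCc
Nfkb2 start 2, chr19:46305445-46305504, plus strand, 236 to 227 bases before: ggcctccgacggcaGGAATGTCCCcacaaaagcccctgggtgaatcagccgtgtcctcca
Nfkb2 start 3, chr19:46305695-46305724, plus strand, 225 to 216 bases before: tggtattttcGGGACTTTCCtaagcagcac
Rel, chr11:23771041-23771070, minus strand, 92 to 82 bases before: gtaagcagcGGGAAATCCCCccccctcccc
Tnfaip3 start 2, chr10:19015516-19015545, minus strand, 125 to 116 bases before: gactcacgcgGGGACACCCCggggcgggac
Tnfaip3 start 2, chr10:19015411-19015440, minus strand, 12 to 3 bases before: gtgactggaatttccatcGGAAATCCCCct

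Of these windows, those of Nfkbia and Nfkb2 start 2 overlapped no exon of the GENCODE annotation (GRCm38), whereas those of Nfkb2 starts 1 and 3, Rel and Tnfaip3 start 2 overlapped an annotated exon. The genes themselves lie at chr12:55489410-55492647 (Nfkbia), chr19:46304320-46312385 (Nfkb2), chr11:23736847-23770970 (Rel), chr10:19000910-19015657 (Tnfaip3), chr3:135584655-135691547 (Nfkb1), chr7:19606217-19629438 (Relb), chr7:19808462-19822770 (Bcl3), chr17:35199381-35202007 (Tnf) and chr13:43784775-43803132 (Cd83). A match describes the sequence and was not measured as a bound site.

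The matrix held 12458 cells with 687 to 131217 unique molecular identifiers (UMIs, counted RNA molecules) each, and 3031124 to 28498154 UMIs per sample. Cells of the tumour had a median of 15191 UMIs, those of dLN 4520 and those of ndLN 4633. The channels shared 65 barcode sequences. Cells were assigned to 13 classes by marker genes that include none of the 9 genes, and every class name ends in "-like" because it rests on these markers alone. Cells that met several gates (1121 cells, 9.0%) were left out as possible doublets, 1454 cells met none, and 22 combinations of class and tissue had at least 20 cells in 2 or more mice. Of the cells with several gates, 896 were among the 4521 tumour cells, at a median of 22500.5 UMIs. Whether leaving them out affected the tumour comparisons was not tested. Levels are given as mean UMIs per 10000 UMIs of a cell, averaged over mice, and tests used limma on each mouse's mean of log2(1 + UMIs per 10000). The second scale reads lower where cells are shallower at the same linear level, so each test was repeated with every cell thinned to 2000 UMIs. A gene was called at an adjusted p under 0.05 over all genes tested in that comparison. The SEs and p-values use limma's moderated spread, which is drawn towards a trend over all genes tested. They can therefore be smaller than the spread of a gene's own mice would give. The targeted gene Havcr2 stood at 0.0409 and 0.0298 UMIs per 10000 in macrophage-like tumour cells of KO1 and KO2, against 0.629 and 0.570 in WT1 and WT2 (adjusted p = 1.39e-04). In cDC1-like cells it was also lower in KO mice in dLN (adjusted p = 2.66e-06) and ndLN (adjusted p = 6.55e-04). In monocyte-like tumour cells it remained at 0.771 and 0.616 in KO1 and KO2 against 1.16 and 1.65 in WT1 and WT2, and this difference did not pass (adjusted p = 0.151). Havcr2 was also not called in nonclassical monocyte-like tumour cells (log2 difference −0.06, adjusted p = 0.976) or in cDC2-like cells (−0.26 in dLN, −0.18 in ndLN). In CD8 T-like tumour cells of WT1 and KO1, 43.9% to 50.8% of cells held a Havcr2 UMI. A lower Havcr2 level was thus not shown in every class compared between KO and WT.

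Relb, the transcription-activating subunit of the slower branch, marked mature DC-like cells (CCR7- and Fscn1-bearing dendritic cells) above all other classes. It averaged 10.3 ± 1.77 UMIs per 10000 (SD, n = 3) in dLN and 8.90 ± 1.64 (n = 4) in ndLN. Next came cDC2-like cells of dLN at 1.29 ± 0.319 (n = 3), whose range did not reach that of the mature DC-like cells. From there down to macrophage-like tumour cells, the lowest at 0.355 ± 0.0976 (n = 4), every neighbour in the order overlapped the next. Nfkb2, the gene for its partner p100, had the same leading class, with 2.48 ± 0.435 in dLN (n = 3) and 2.09 ± 0.365 in ndLN (n = 4). The ranges of mature DC-like ndLN cells and of B-like tumour cells (1.63 ± 0.291, n = 2) overlapped. CD8 T-like cells of ndLN were lowest for Nfkb2 at 0.244 ± 0.0379 (n = 4). A single sample of mature DC-like tumour cells, 24 cells of WT1, held Relb at 7.78 and Nfkb2 at 3.5.

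Rel, which encodes c-Rel, was highest in B-like cells, at 4.46 ± 0.709 UMIs per 10000 in ndLN and 3.48 ± 0.627 in dLN (n = 4 each). Mature DC-like cells followed at 2.51 ± 0.615 in ndLN (n = 4) and 2.25 ± 0.789 in dLN (n = 3), and their highest mice overlapped the lowest B-like dLN mice. NK-like tumour cells were lowest for Rel at 0.169 ± 0.0298 (n = 2), with no overlap with the macrophage-like cells above them (0.323 ± 0.0588, n = 4). Nfkb1, the p50 precursor, had another order. It was highest in cDC2-like cells of dLN (2.04 ± 0.240, n = 3), ndLN (2.01 ± 0.546, n = 4) and tumour (1.70 ± 1.21, n = 2), then in nonclassical monocyte-like tumour cells (1.67 ± 0.366, n = 3). pDC-like cells, the plasmacytoid class, held Nfkb1 at 1.27 ± 0.632 in ndLN and 1.12 ± 0.120 in dLN (n = 4 each), and the dLN range did not overlap that of B-like ndLN cells below it. Mature DC-like cells stood lower, at 0.588 ± 0.228 in dLN (n = 3) and 0.575 ± 0.109 in ndLN (n = 4).

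Among the inhibitors, Nfkbia was detected most widely, with a UMI in 82.3% of all cells. It ranged from 15.9 ± 6.24 UMIs per 10000 in mature DC-like dLN cells (n = 3) and 15.8 ± 2.35 in neutrophil-like tumour cells (n = 2) down to 2.98 ± 0.811 in macrophage-like tumour cells (n = 4). All neighbours in this order overlapped. Tnfaip3, the ubiquitin-editing enzyme A20, was highest in some T- and NK-like classes and in mature DC-like cells, with 2.00 ± 0.488 in NK-like tumour cells, 1.94 ± 0.430 in CD8 T-like tumour cells (n = 2 each) 1.85 ± 0.809 in CD4 T-like ndLN cells (n = 4) and 1.80 ± 0.664 in mature DC-like dLN cells (n = 3). B-like dLN cells (0.223 ± 0.0244) and macrophage-like tumour cells (0.210 ± 0.0232) were lowest for Tnfaip3 (n = 4 each). Treg-like cells of dLN, which fell below the minimum of 20 cells in 3 of 4 mice, held Tnfaip3 at 5.20 in WT1, 5.71 in WT2, 6.81 in KO1 and 5.11 in KO2, from 20, 13, 12 and 11 cells. Each of these mice was above every class mean in the ranked order. Bcl3, a nuclear IκB protein that binds p50 and p52 homodimers, was highest in cDC2-like cells (2.08 ± 0.475 in ndLN, n = 4) and in monocyte-like tumour cells (1.82 ± 0.202, n = 4), and lowest in CD8 T-like ndLN cells (0.266 ± 0.0536, n = 4). After thinning, neutrophil-like tumour cells led for Bcl3 (3.06, against 1.49 ± 0.261 before, n = 2, with 8 and 10 cells left) and cDC1-like ndLN cells were lowest for Bcl3 (0.184) and Tnfaip3 (0.132).

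Of the outputs, Cd83, a surface protein of activated antigen-presenting cells, was highest in B-like cells of all 3 tissues: 7.65 ± 0.808 UMIs per 10000 in ndLN (n = 4), 7.55 ± 0.109 in tumour (n = 2) and 7.27 ± 0.567 in dLN (n = 4). The lowest B-like dLN mouse (6.66) exceeded the highest mature DC-like dLN mouse with at least 20 cells (6.44), while KO2, with 16 mature DC-like dLN cells, reached 9.65. A Cd83 UMI was found in 76.8% of B-like dLN cells at a median of 3073 UMIs, against 3.18% of CD8 T-like dLN cells at a median of 5352.5 UMIs. Whether the CD8 T-like share is background or expression was not tested. Tnf, the cytokine, was highest in CD4 T-like ndLN cells, at 1.30 ± 0.953 (n = 4), but thinned to 2000 UMIs these cells held 0.760 and cDC1-like ndLN cells led at 0.934. It averaged 0.896 ± 0.423 in cDC1-like dLN cells (n = 3) and 0.579 ± 0.203 in macrophage-like tumour cells (n = 4), while NK-like tumour cells were lowest at 0.0782 ± 0.0650 (n = 2), though not after thinning.

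**Figure D1:**
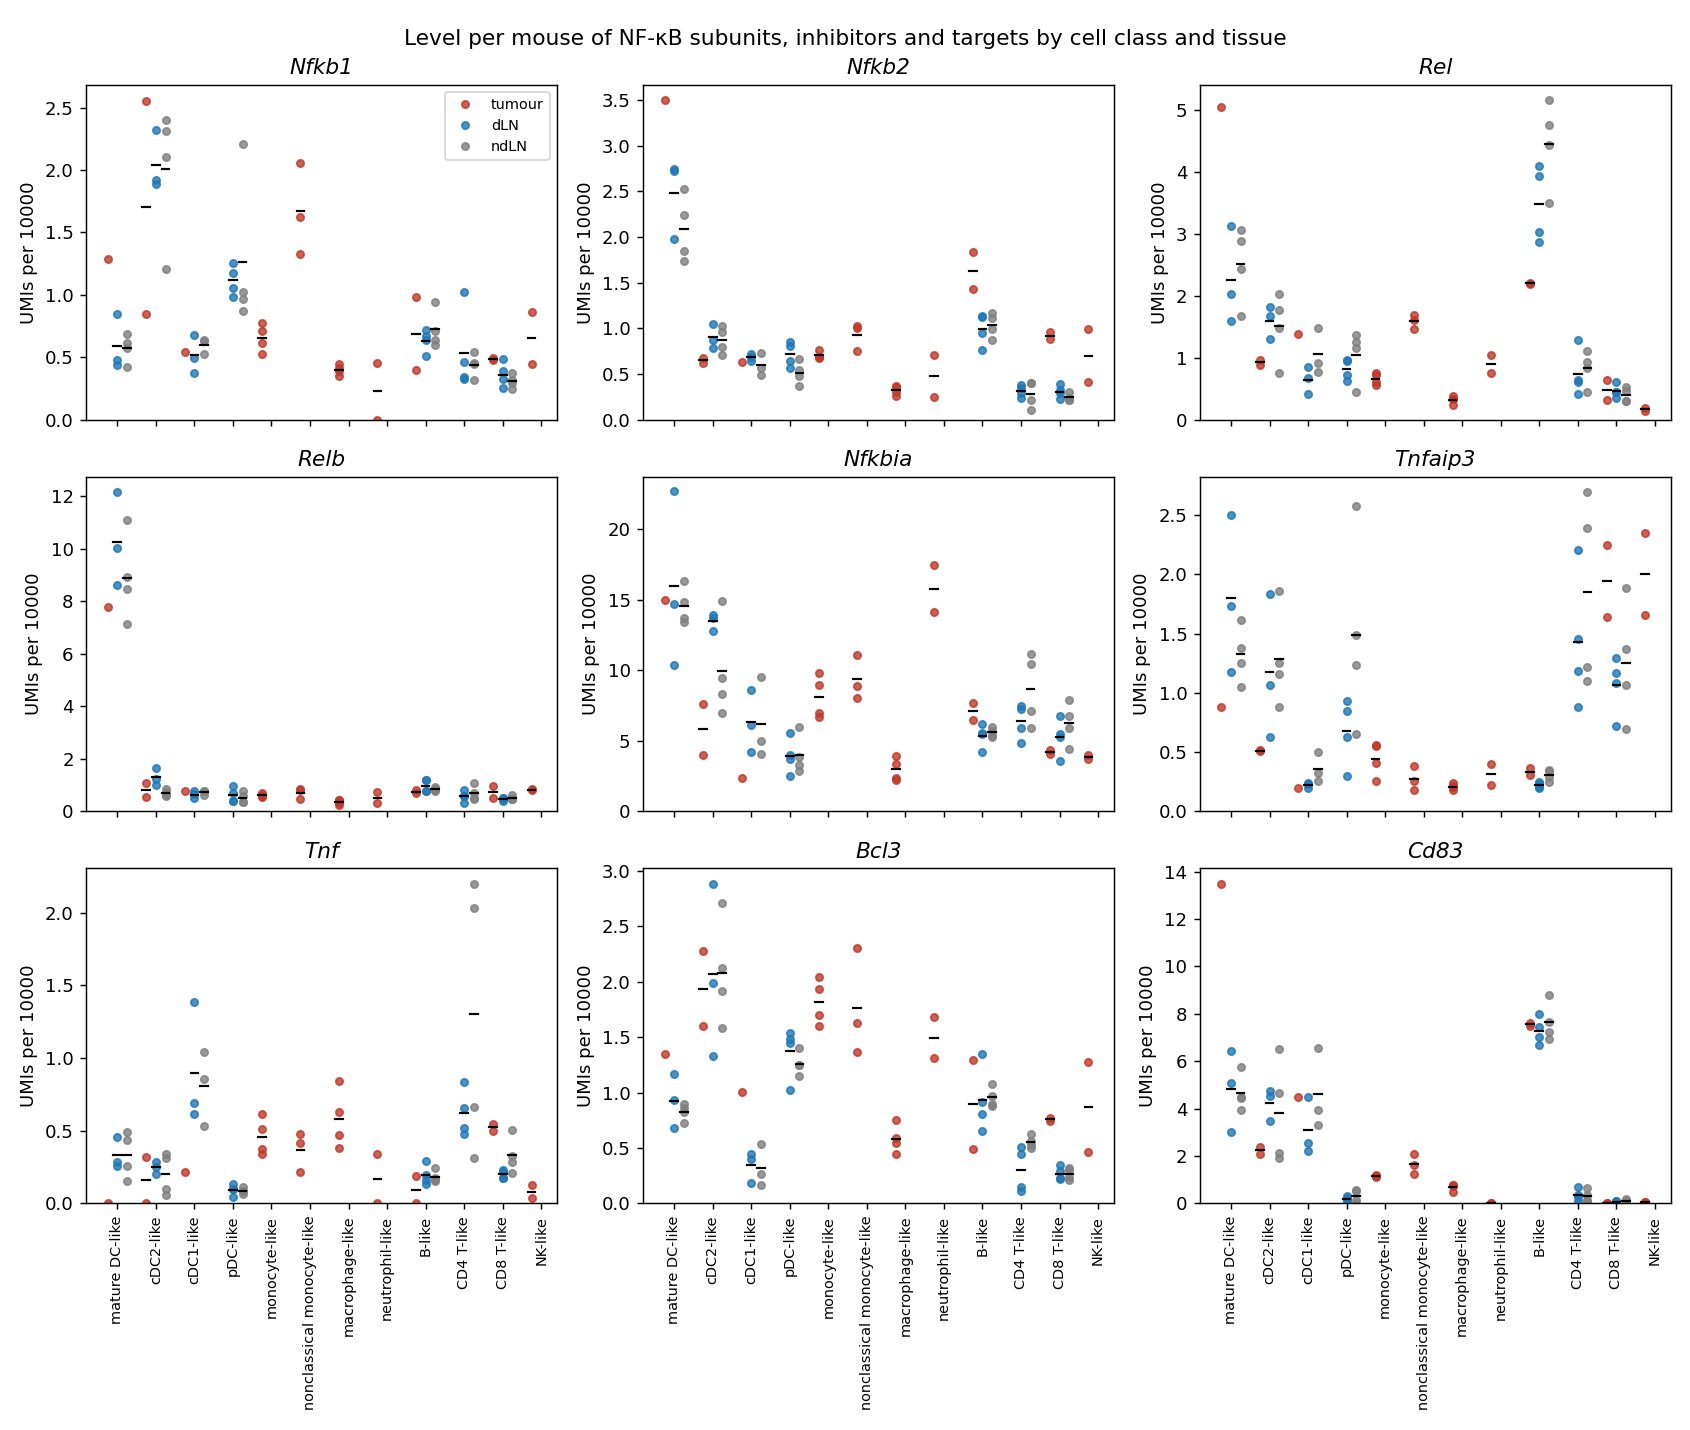
Each panel plots 1 gene, with the level in UMIs per 10000 on a linear axis that differs between panels and the cell classes along the other axis. Points are mice with at least 20 cells of the class, coloured by tissue, and black bars are means where 2 or more mice were measured. Relb separates the mature DC-like class (7.12 to 12.1 in lymph nodes), Cd83 and Rel are highest in B-like cells, and Nfkb1 and Bcl3 in cDC2-like cells.

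Mature DC-like cells were then compared with cDC2-like cells of the same node and mouse. The Relb and Nfkb2 pair was higher in mature DC-like cells, and Nfkb1 and Bcl3 were lower, in both nodes. In ndLN, Relb was 11.1, 8.47, 8.91 and 7.12 UMIs per 10000 in mature DC-like cells of WT1, WT2, KO1 and KO2. The cDC2-like cells of the same mice held 0.724, 0.628, 0.605 and 0.850. No mouse overlapped, and the ratio of the means was 12.7. The log2 difference was 2.47 ± 0.15 (SE, adjusted p = 3.08e-27, higher in 4 of 4 mice). Nfkb2 was 2.53, 1.74, 1.85 and 2.24 in mature DC-like ndLN cells against 0.708, 0.796, 1.03 and 0.962 in cDC2-like cells, again without overlap (log2 difference 0.60 ± 0.11, adjusted p = 2.57e-06). Nfkbia was 13.7, 14.9, 16.3 and 13.4 against 8.33, 6.96, 14.9 and 9.47, higher in each of the 4 mice although KO1's cDC2-like cells lay above KO2's mature DC-like cells (0.80 ± 0.18, adjusted p = 1.72e-04). In the other direction, Nfkb1 was 0.425, 0.576, 0.616 and 0.684 in mature DC-like ndLN cells against 2.10, 2.31, 2.40 and 1.21 in cDC2-like cells, 3.49-fold lower by the means (log2 difference −0.83 ± 0.10, adjusted p = 9.62e-11). Bcl3 was 0.822, 0.727, 0.863 and 0.896 against 1.92, 2.12, 2.71 and 1.58 (−0.60 ± 0.10, adjusted p = 1.03e-06). All mature DC-like mice were below all cDC2-like mice for both genes.

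In total, 5 of the 9 genes were called in ndLN, where 40.7% of all 8680 genes tested were called, so the count itself is near the background. The other 4 genes did not pass, with log2 differences of 0.27 for Rel (adjusted p = 0.0546), 0.30 for Cd83, 0.09 for Tnfaip3 and 0.03 for Tnf. Limma-voom on summed UMIs called the same number, 5, with samples scaled by their totals, and all 9 with samples scaled by median ratio, which moved all genes by 0.28 (log2) towards mature DC-like cells. A gate with 1 more marker also called Cd83 (0.64, adjusted p = 2.36e-04). Without KO1, Rel (0.32, adjusted p = 0.0373) and Cd83 (0.59, adjusted p = 9.30e-04) also passed, and Rel passed without WT2 (0.36, adjusted p = 0.0409). In dLN, with samples of at least 10 cells so that all 4 mice entered (KO2 with 16 mature DC-like cells), 6 of 9 genes were called against 42.5% of all genes. The log2 differences were 2.27 for Relb, 0.65 for Nfkb2, 0.60 for Cd83, 0.51 for Nfkbia, −0.94 for Nfkb1 and −0.67 for Bcl3. Nfkbia in dLN lost its call without KO1 (0.41, adjusted p = 0.161), WT1 (0.56, adjusted p = 0.0566) or WT2 (0.37, adjusted p = 0.167), without mouse as a block (adjusted p = 0.122), without the detection filter (adjusted p = 0.0615) and after thinning (adjusted p = 0.0950), when Cd83 (adjusted p = 0.0836) was lost too. Tnfaip3 gained a call in dLN without WT2 (0.46, adjusted p = 0.00172) and, with Rel, under the stricter gate (0.35 and 0.36, adjusted p = 0.0109 and 0.0132).

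Pathway genes around the 9 went in both directions. Of 7 upstream receptors tested in ndLN, 3 were higher in mature DC-like cells, namely Cd40 (log2 difference 1.21), Tnfrsf1b (0.95) and Tnfrsf11a, the receptor for RANKL (0.69). Another 3 were lower, namely Tnfrsf1a (−0.77), Ltbr (−0.24) and Tlr9 (−0.15). Of 18 kinases and adaptors, 7 were higher and 3 lower, with a median of 0.05 against −0.04 over all genes. The higher ones included Traf1 (1.86), Birc2 (1.29), Birc3 (0.90), Ikbkb (0.62) and Traf2 (0.35), and the lower ones included Myd88 (−0.40). Of 11 further subunit and inhibitor genes, 2 were higher, Nfkbib (0.91) and the A20 partner Tnip1 (0.46), and 3 were lower, among them the nuclear IκB genes Nfkbid (−0.64) and Nfkbiz (−0.59). Other known NF-κB targets went both ways, with 9 higher and 6 lower of 15 and a median of 0.44. Gadd45b (2.97), Marcksl1 (2.93), Irf1 (1.11) and the survival gene Bcl2a1b (1.22) rose, whereas Il1b (−1.55), Ccl4 (−1.51), Plek (−0.95) and Ier3 (−0.61) fell.

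Immediate early genes that tissue digestion is known to induce were lower in the mature DC-like cells for 12 of 13 tested, with Fos at −2.50. Their summed level was 25.8 to 55.6 UMIs per 10000 in mature DC-like ndLN cells and 71.6 to 98.8 in cDC2-like ndLN cells. The 5 monocyte markers, all measured, summed to 9.72 to 21.9 UMIs per 10000 in cDC2-like ndLN cells and 0.0101 to 0.297 in mature DC-like ndLN cells. The part of these differences in the 9 genes was not tested. Median depth was 7123.5 UMIs in mature DC-like and 8836 in cDC2-like ndLN cells, and all 5 calls in ndLN held after thinning.

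**Figure D2:**
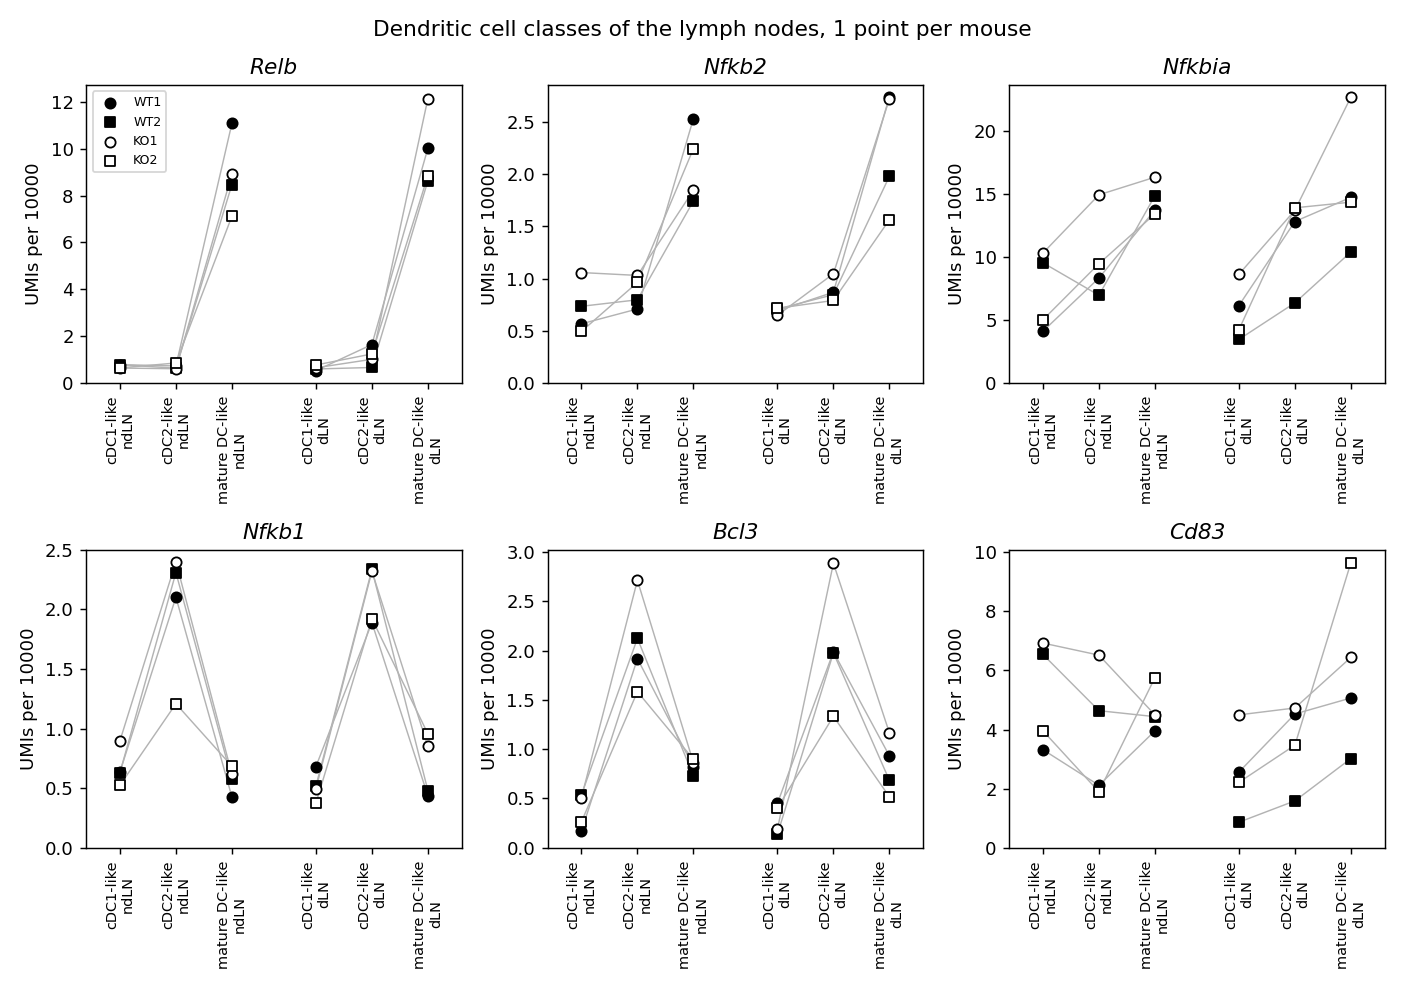
Levels in UMIs per 10000 on linear axes for 6 genes in cDC1-, cDC2- and mature DC-like cells, with ndLN on the left and dLN on the right of each panel. Each point is a mouse with at least 10 cells, filled for WT and open for KO, circles for channel 1 and squares for channel 2, and lines join the classes of a mouse. Relb and Nfkb2 rise to the mature DC-like class in every mouse, and Nfkb1 and Bcl3 peak in cDC2-like cells.

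The mature DC-like cells of ndLN were also compared with cDC1-like cells in the 3 mice with enough of both (WT1, WT2 and KO2), so the mature DC-like samples are shared with the comparison above. Here 7 of 9 genes were called, against 41.3% of all genes. Relb was again far higher (log2 difference 2.36 ± 0.16, adjusted p = 1.40e-13), with means of 8.89 and 0.731 UMIs per 10000. Nfkbia (1.07), Nfkb2 (0.74), Tnfaip3 (0.49), Rel (0.42) and Bcl3 (0.32) were also higher, and Tnf was lower (−0.31, adjusted p = 6.78e-04), at means of 0.395 and 0.809. Nfkb1, which separated mature DC-like from cDC2-like cells, differed by −0.11 ± 0.08 from cDC1-like cells (adjusted p = 0.279). cDC1-like ndLN cells were the deeper class (median 19162 UMIs), and after thinning only Relb was still called among the 9. The lost calls kept their direction after thinning, at 1.49 for Nfkbia, 0.75 for Nfkb2, 0.48 for Rel and 0.42 for Tnfaip3. Bcl3 (0.20) and Tnf (−0.19) were smaller than before. Rel lost its call without KO2 (0.18, adjusted p = 0.305). With a pseudocount of 0.1, Nfkb1 was called lower (−0.64, adjusted p = 0.0214) and Rel was not called.

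The cDC2- and cDC1-like classes differed from each other as well. In dLN, cDC2-like cells exceeded cDC1-like cells in all 3 mice with both classes (WT1, KO1 and KO2) for Nfkb1, at 1.89, 2.32 and 1.92 UMIs per 10000 against 0.680, 0.494 and 0.373. The log2 difference was 0.83 ± 0.08 (adjusted p = 1.64e-10). Bcl3 was 1.99, 2.89 and 1.33 against 0.449, 0.186 and 0.402 (0.94 ± 0.09 with the moderated SE, adjusted p = 2.16e-10). The log2 differences of Bcl3 within these mice were 0.83, 1.39 and 0.58. Neither gene overlapped between the classes. Nfkbia (0.70), Tnfaip3 (0.50), Rel (0.47) and Relb (0.37) were also higher in cDC2-like cells, and Tnf was lower (−0.27, adjusted p = 6.99e-04), at 0.203, 0.286 and 0.248 against 0.690, 1.38 and 0.616 UMIs per 10000. These 7 calls of 9 compare with 22.9% of all genes. None was kept after thinning, where Nfkb1 gave 0.83 (adjusted p = 0.0641), and cDC1-like dLN cells were the deeper (median 18125 against 10850 UMIs). The other thinned differences were 1.10 for Nfkbia, 0.69 for Bcl3, 0.55 for Rel, 0.36 for Relb, 0.34 for Tnfaip3 and −0.17 for Tnf. Without WT1 the Relb difference was 0.21 (adjusted p = 0.0859), and without KO1 that of Tnf was −0.20 (adjusted p = 0.0505). A gate with 1 more marker ended the Relb call too (0.14, adjusted p = 0.187) and called Cd83 lower (−0.56, adjusted p = 1.26e-04), whereas limma-voom with total scaling called Cd83 higher (0.41, adjusted p = 0.0289). Of the 13 immediate early genes, 11 were higher in cDC2-like dLN cells, where they summed to 87.0 to 98.2 UMIs per 10000 in the 3 mice against 27.5 to 65.2 in cDC1-like cells, and their part was not tested. The nuclear IκB genes Nfkbid (0.92) and Nfkbiz (0.90) were higher too.

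Against pDC-like cells of ndLN, which produce type I interferon, cDC2-like cells were higher for 5 of 9 genes, against 28.4% of all genes called. Cd83 differed most, at 2.11, 4.64, 6.52 and 1.89 UMIs per 10000 in cDC2-like cells of WT1, WT2, KO1 and KO2 against 0, 0.518, 0.539 and 0.155 in pDC-like cells (log2 difference 1.36 ± 0.10, adjusted p = 7.94e-39). It was the only call of the 9 left after thinning (1.10, adjusted p = 0.0339). Nfkbia (0.88), Nfkb1 (0.40), Bcl3 (0.31) and Nfkb2 (0.23) were higher as well. Nfkb1 lost its call without WT2 (0.25, adjusted p = 0.169), Bcl3 without KO1 (0.21, adjusted p = 0.221) or WT2 (0.32, adjusted p = 0.0685), and Nfkb2 without KO1 (0.16, adjusted p = 0.259), KO2 (0.26, adjusted p = 0.0511) or WT2 (0.25, adjusted p = 0.0662). Of 13 immediate early genes, 8 were higher in cDC2-like ndLN cells, with sums of 71.6 to 98.8 against 36.2 to 64.9 in pDC-like cells, and the 5 monocyte markers summed to 38.0 to 53.9 in pDC-like cells, against 9.72 to 21.9. The part of either was not tested. The chemokine gene Ccl4 went the other way (−2.13).

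In the tumour, monocyte-like cells exceeded macrophage-like cells for 8 of the 9 genes and were lower for Tnf, so that all 9 were called, against 50.8% of all genes. Nfkbia was 6.99, 6.72, 8.99 and 9.80 UMIs per 10000 in monocyte-like cells of WT1, WT2, KO1 and KO2 and 3.40, 2.35, 3.91 and 2.25 in macrophage-like cells. The log2 difference was 1.08 ± 0.10 (adjusted p = 1.39e-07, higher in 4 of 4 mice). Bcl3 was 1.94, 1.70, 2.04 and 1.60 against 0.546, 0.448, 0.751 and 0.588, a 3.12-fold ratio of means (0.56 ± 0.04, adjusted p = 6.13e-09). Both genes were without overlap between the classes. The subunits followed with smaller log2 differences of 0.26 for Nfkb2, 0.21 for Rel, 0.17 for Nfkb1 and 0.16 for Relb, beside 0.16 for Tnfaip3 and 0.14 for Cd83. Tnf was lower by −0.10 ± 0.04 (adjusted p = 0.0389), in 3 of 4 mice, and was not called without KO1 (−0.06, adjusted p = 0.253), WT1 (−0.09, adjusted p = 0.125) or WT2 (−0.09, adjusted p = 0.143) or without mouse as a block (adjusted p = 0.105).

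Macrophage-like tumour cells were the deepest class (median 20334.5 UMIs against 9854 in monocyte-like cells). After thinning, 5 calls were kept, Nfkbia (1.15), Bcl3 (0.44), Rel (0.17), Nfkb1 (0.16) and Tnfaip3 (0.11). Around these genes, 6 of 9 receptors were higher in monocyte-like cells, led by Tnfrsf1a (0.71) and Tlr2 (0.60), and 10 of 18 kinases and adaptors, including Myd88 (0.53), Traf1 (0.40) and Birc3 (0.40). Of 15 other targets, 9 were higher, with Il1b at 2.55, Ier3 at 1.17 and Irf1 at 0.91, and 4 were lower, including Bcl2a1b (−0.95) and Ebi3 (−0.38). The list's median was 0.26 against −0.02 over all genes. Immediate early genes were higher for 10 of 12 tested, and their sum was 118 to 144 UMIs per 10000 in monocyte-like and 40.8 to 49.9 in macrophage-like cells. The 5 macrophage markers summed to 14.3 to 17.9 in monocyte-like and 238 to 299 in macrophage-like cells. Their part in the result was not tested.

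Nonclassical monocyte-like cells, the Ace- and Treml4-bearing patrolling type, were higher than monocyte-like cells of the same 3 tumours for Nfkb1 and Rel. Nfkb1 was 1.33, 1.63 and 2.06 UMIs per 10000 in WT1, WT2 and KO1 against 0.615, 0.775 and 0.711, and Rel 1.47, 1.61 and 1.68 against 0.567, 0.729 and 0.749. The classes did not overlap for either gene, and the log2 differences were 0.53 ± 0.08 (adjusted p = 1.27e-05) and 0.50 ± 0.07 (adjusted p = 9.28e-06). Nfkbia (0.36) and Cd83 (0.34) were also called, which made 4 of 9 against 20.1% of all genes. The Nfkbia call ended when WT1 was left out (0.30, adjusted p = 0.214), that of Cd83 when KO1 was (0.23, adjusted p = 0.0533), and neither passed under a gate with 1 more marker (0.07 and 0.04). With samples of at least 10 cells, which added KO2, Nfkbia differed by 0.11 (adjusted p = 0.658), and it was not called without mouse as a block (adjusted p = 0.224). After thinning Nfkbia was not called (adjusted p = 0.170), and the other 3 were. Immediate early genes were higher for 6 of 12 and lower for 1, with sums of 123 to 164 UMIs per 10000 in nonclassical and 118 to 133 in monocyte-like cells of the same 3 mice. In the opposite direction, 6 of 15 other targets were lower in the nonclassical class, led by Ier3 (−1.88) and Cxcl2 (−0.97).

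**Figure D3:**
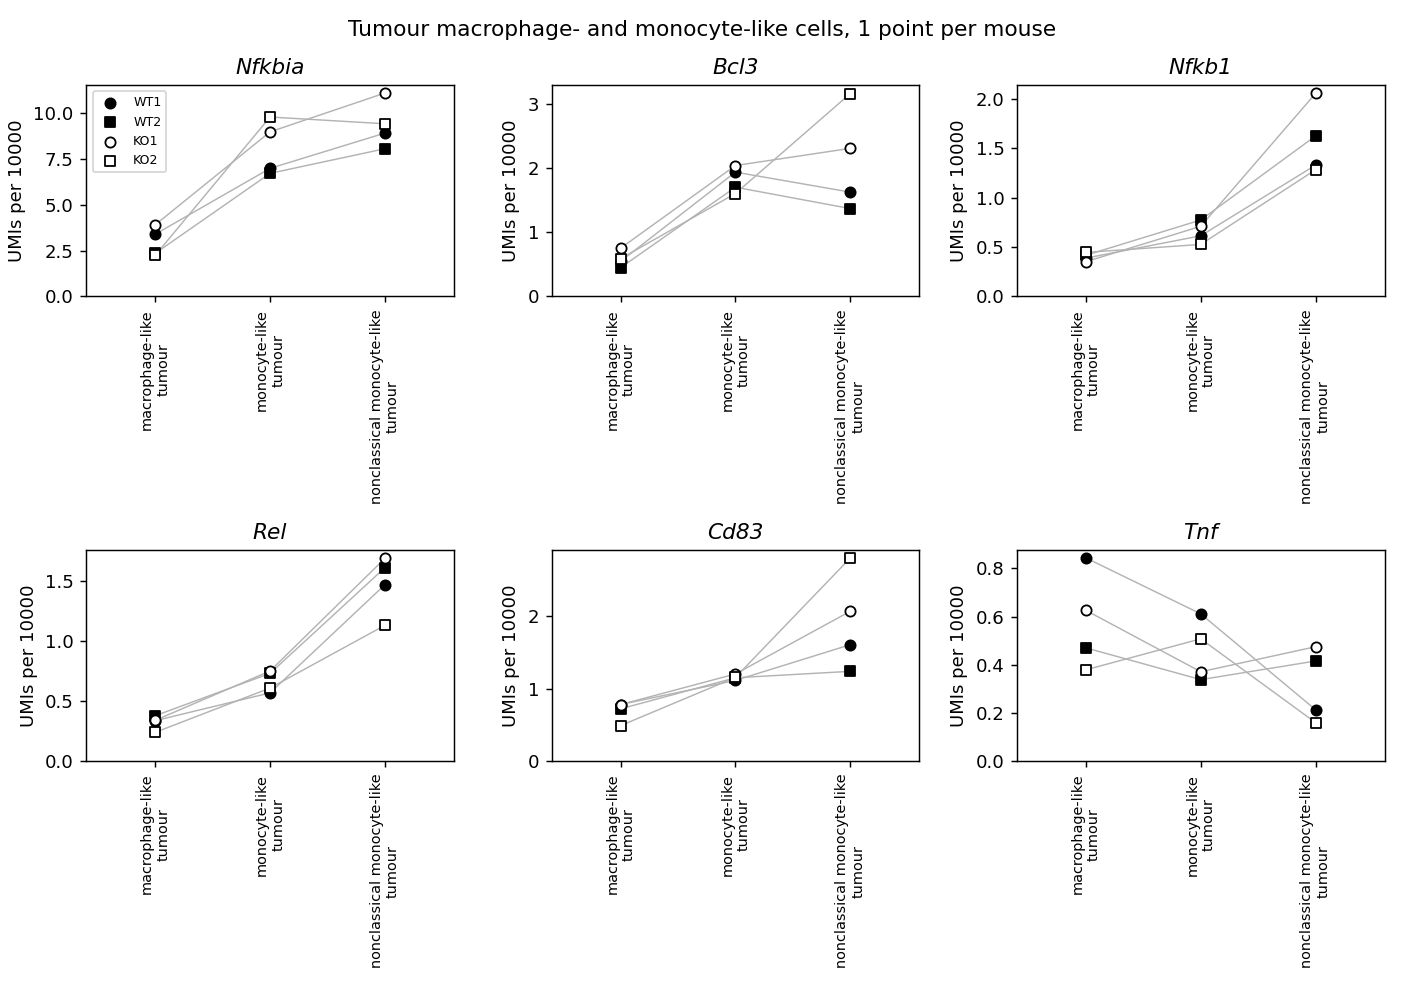
Levels in UMIs per 10000 on linear axes for 6 genes in macrophage-, monocyte- and nonclassical monocyte-like tumour cells. Each point is a mouse with at least 10 cells, filled for WT and open for KO, circles for channel 1 and squares for channel 2, joined by mouse. Nfkbia and Bcl3 step up from macrophage- to monocyte-like cells in all 4 mice, and Nfkb1 and Rel step up again to the nonclassical class.

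Among lymphocytes, B-like cells stood above CD4 T-like cells for Cd83 and Rel and below them for Tnfaip3 and Tnf in both nodes. In dLN, Cd83 was 7.43, 7.0, 7.98 and 6.66 UMIs per 10000 in B-like cells of WT1, WT2, KO1 and KO2 against 0.348, 0.263, 0.697 and 0.112 in CD4 T-like cells. The ratio of means was 20.5 and the log2 difference 2.21 ± 0.07 (adjusted p = 5.40e-25). Rel in dLN was 3.94, 3.03, 4.10 and 2.86 against 0.412, 1.29, 0.616 and 0.639 (1.09 ± 0.07, adjusted p = 3.33e-15). Every B-like mouse was above every CD4 T-like mouse for both genes. Tnfaip3 showed the reverse, at 0.207, 0.198, 0.248 and 0.240 in B-like dLN cells against 1.45, 2.20, 1.18 and 0.879 in CD4 T-like dLN cells, 6.41-fold lower by the means (−0.60 ± 0.06, adjusted p = 4.68e-11). Tnf was 3.18-fold lower (−0.18 ± 0.04, adjusted p = 1.14e-04), and neither gene overlapped. Nfkb2 (0.35), Bcl3 (0.31) and Relb (0.20) were higher in B-like dLN cells, so 7 of 9 genes were called against 36.4% of all genes.

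In ndLN, 6 of 9 genes were called, against 30.4% of all genes, in the same directions: Cd83 (2.32 ± 0.09, adjusted p = 1.43e-38), Rel (1.34 ± 0.09, adjusted p = 5.45e-24), Nfkb2 (0.40) and Bcl3 (0.20) higher, Tnfaip3 (−0.68) and Tnf (−0.29) lower. Relb differed by 0.07 (adjusted p = 0.438). The 13 calls of both nodes held after thinning and with each mouse left out. Nfkbia was not called in either node (−0.01 in dLN, −0.18 in ndLN), though limma-voom on summed UMIs called it lower in B-like cells in both (adjusted p = 8.48e-05 and 5.30e-04). The receptors for B-cell survival and help were higher in B-like dLN cells, BAFF receptor Tnfrsf13c by 1.48 and Cd40 by 0.50, while the TNF receptors Tnfrsf1a (−0.31) and Tnfrsf1b (−0.14) were lower. Of 16 kinases and adaptors, 5 were higher, including Bcl10 (0.44) and Malt1 (0.21), and 2 were lower. Of 10 further subunit and inhibitor genes, 5 were higher and 3 lower, with Nfkbid (0.42) and Nfkbie (0.32) leading. Immediate early genes were higher in B-like dLN cells for 7 of 12 and lower for 1, with sums of 56.9 to 78.8 UMIs per 10000 against 35.5 to 49.5 in CD4 T-like cells, and their part was not tested. The 3 T markers summed to at most 0.336 UMIs per 10000 in B-like dLN cells and the 5 B markers to at most 0.0598 in CD4 T-like dLN cells.

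CD4 T-like cells differed less from CD8 T-like cells. Tnf was higher in CD4 T-like dLN cells, at 0.473, 0.656, 0.831 and 0.514 UMIs per 10000 against 0.171, 0.174, 0.231 and 0.216, with no overlap (log2 difference 0.17 ± 0.04, adjusted p = 0.00127). Cd83 was higher too (0.10, adjusted p = 0.00488), though at most 0.697 in any mouse. These were 2 of 9 genes called, against 11.9% of all genes, and neither was called after thinning (adjusted p = 0.106 and 0.128). Limma-voom on summed UMIs with total scaling called 6 in dLN and 7 in ndLN, all higher in CD4 T-like cells, where scaling by median ratio moved all genes by −0.21 and −0.19 (log2). In ndLN, Rel (0.23), Tnf (0.20), Bcl3 (0.15) and Cd83 (0.10) were called, 4 of 9 against 8.44% of all genes. Tnf in CD4 T-like ndLN cells was 0.309, 2.19, 2.03 and 0.662 in WT1, WT2, KO1 and KO2, and WT1 lay within the CD8 T-like range of 0.205 to 0.504. Each of these 4 calls ended when some mouse was left out: Rel without KO2 (0.18, adjusted p = 0.0830) or WT2 (0.18, adjusted p = 0.0736), Tnf without KO1 (0.17, adjusted p = 0.0616) or WT2 (0.17, adjusted p = 0.0660), Cd83 without KO1 (0.08, adjusted p = 0.0737), and Bcl3 without any 1 of the 4 mice (adjusted p = 0.0555 to 0.207). After thinning Rel, Tnf and Cd83 were still called and Bcl3 was not (adjusted p = 0.0790). Immediate early genes were higher in CD4 T-like ndLN cells for 6 of 12, with sums of 30.0 to 67.6 UMIs per 10000 against 25.8 to 44.8, and their part was not tested. Without mouse as a block only Rel was called.

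**Figure D4:**
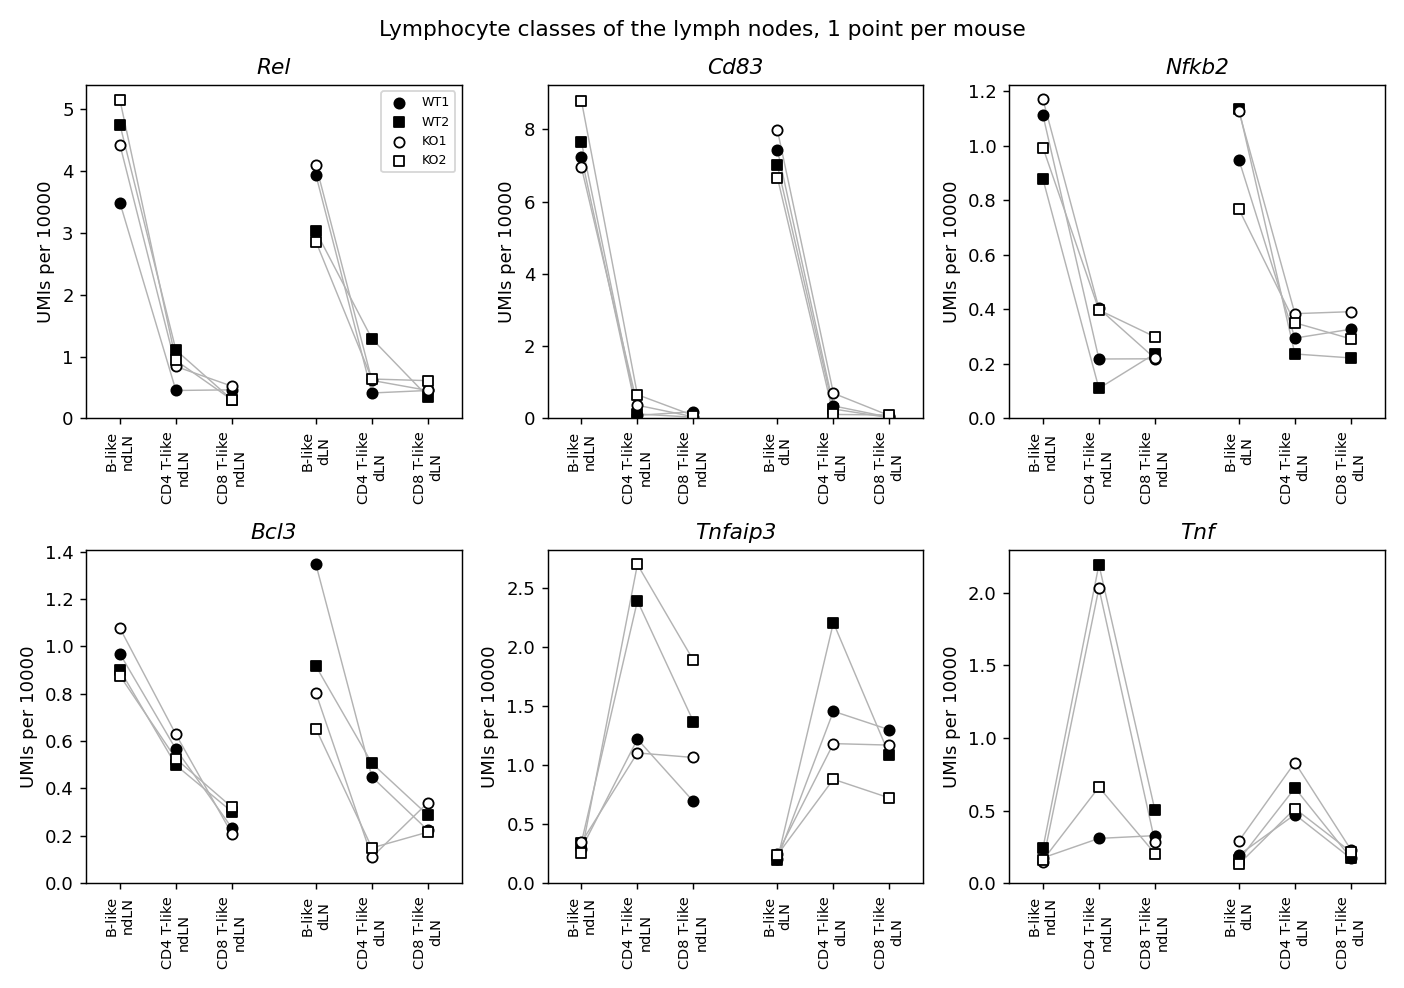
Levels in UMIs per 10000 on linear axes for 6 genes in B-, CD4 T- and CD8 T-like cells, with ndLN on the left and dLN on the right of each panel. Each point is a mouse with at least 20 cells, filled for WT and open for KO, circles for channel 1 and squares for channel 2, joined by mouse. Rel and Cd83 fall from B- to T-like cells in all 4 mice, and Tnfaip3 does the opposite.

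The draining node was compared with the non-draining node in 6 classes. None of 52 tests was called by limma, 9 had an unadjusted p under 0.05, and limma-voom called 0. Over all genes tested, an unadjusted limma p under 0.05 was found for 332 of 6006 in B-like, 380 of 6708 in CD4 T-like and 394 of 6780 in CD8 T-like cells. In pDC-like cells it was 465 of 8244, in mature DC-like cells 373 of 7050 and in cDC2-like cells 755 of 8283. The share of all genes called was also low, at 0% in B-, CD4 T- and mature DC-like cells, 0.0147% in CD8 T-, 0.0121% in pDC- and 0.145% in cDC2-like cells. Relb in cDC2-like cells came nearest, at 1.64, 1.01 and 1.24 UMIs per 10000 in dLN of WT1, KO1 and KO2 against 0.724, 0.605 and 0.850 in ndLN. It was higher in all 3 mice, by a log2 difference of 0.40 ± 0.10 (adjusted p = 0.108), and passed with a pseudocount of 0.1 (adjusted p = 0.0342). Rel in B-like cells was lower in dLN in 3 of 4 mice (−0.34 ± 0.10, adjusted p = 0.562), WT1 being the exception, and without WT1 it was called (−0.49, adjusted p = 0.00185). Without KO1, Nfkbia (−0.38, adjusted p = 4.21e-04) and Tnfaip3 (−0.20, adjusted p = 0.0102) were called lower in dLN in CD8 T-like cells, which with all mice gave −0.25 and −0.14. Tnfaip3 in pDC-like cells was lower in dLN in 4 of 4 mice (−0.31 ± 0.08, adjusted p = 0.309).

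CD8 T-like cells of the tumour were compared with those of dLN in WT1, KO1 and KO2, with at least 10 cells (KO2 with 19). Tnfaip3 was 1.64, 2.24 and 2.50 UMIs per 10000 in tumour against 1.30, 1.17 and 0.721 in dLN, and Nfkb2 0.884, 0.957 and 0.782 against 0.327, 0.392 and 0.292. The tissues did not overlap for either gene. The log2 differences were 0.64 ± 0.10 (adjusted p = 1.19e-05) and 0.44 ± 0.07 (adjusted p = 8.82e-06), both with the moderated SE. Within WT1, KO1 and KO2 they were 0.25, 0.67 and 1.01 for Tnfaip3 and 0.43, 0.48 and 0.41 for Nfkb2. The mice thus spread more widely for Tnfaip3 than its moderated SE shows. Bcl3 (0.30), Relb (0.25) and Tnf (0.18) were higher too, which made 5 of 8 genes tested against 35.0% of all genes. Tumour CD8 T-like cells were deeper (median 7713 against 5352.5 UMIs), and Tnfaip3 (0.58) and Nfkb2 (0.28) were the calls left after thinning. Relb lost its call without KO1 (0.17, adjusted p = 0.193), and Tnf without KO1 (0.16, adjusted p = 0.103) or WT1 (0.14, adjusted p = 0.182). Nfkb1 gained one without KO2 (0.19, adjusted p = 0.0178). Limma-voom on summed UMIs did not call Relb and called Nfkbia lower, both with total scaling (0.54, adjusted p = 0.0589, and −0.44, adjusted p = 0.0101) and with median ratio scaling (0.28, adjusted p = 0.358, and −0.70, adjusted p = 8.60e-04). The latter moved all genes by −0.26 (log2) and did not call Tnfaip3 (0.56, adjusted p = 0.0566). Immediate early genes were higher in tumour for 6 of 12 and lower for 2, with sums of 30.4 to 48.3 UMIs per 10000 against 26.4 to 35.6 in dLN, and their part was not tested. Of 12 other targets, 8 were higher in tumour and none lower, with Ccl4 at 2.87 and Ccl3 at 1.29.

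KO and WT mice were compared within 17 combinations of class and tissue, 12 with at least 20 cells per mouse and 5 with at least 10. None of the 149 tests of the 9 genes was called, 14 had an unadjusted p under 0.05, and limma-voom called 0. Over all genes tested, those with an unadjusted limma p under 0.05 ran from 161 of 9011 in cDC1-like dLN cells to 678 of 7030 in mature DC-like dLN cells. With 2 mice a genotype, the standard error of a log2 difference was 0.11 at the median and 0.31 at most, and differences ran from −0.38 to 0.71, so a missed threshold does not show equal levels. Few genes of any kind were called. The shares were 0.0314% in macrophage-like and 0.0497% in monocyte-like tumour cells, 0.0238% in cDC2-like and 0.0121% in pDC-like ndLN cells, 0.0166% in B-like and 0.0289% in CD8 T-like dLN cells. They were 0.0222% and 0.0444% in cDC1-like cells of dLN and ndLN and 0.0265% in nonclassical monocyte-like tumour cells, and 0% in the other 8 combinations.

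The lowest adjusted p belonged to Nfkbia in monocyte-like tumour cells, at 6.99 and 6.72 UMIs per 10000 in WT1 and WT2 and 8.99 and 9.80 in KO1 and KO2. The genotypes did not overlap. The KO mean was 1.37-fold that of WT, with a log2 difference of 0.60 ± 0.12 (limma adjusted p = 0.151). With the channel as a replicate block this difference was called (adjusted p = 2.78e-04), as it was without KO1 (0.61, adjusted p = 0.0156). There, as in each KO minus WT value that leaves a mouse out, the lone mouse of a genotype is assumed to vary like the other groups. It was not called by limma-voom (0.49, adjusted p = 0.152) or after thinning (0.73, adjusted p = 0.929). Tnfaip3 in these cells was 0.260 and 0.413 in WT against 0.548 and 0.561 in KO (0.17 ± 0.06, adjusted p = 0.873). The immediate early gene Dusp1 was called higher in KO monocyte-like cells (0.77, adjusted p = 0.0338), and the summed immediate early level was 131 and 118 in WT1 and WT2 and 133 and 144 in KO1 and KO2. Havcr2 itself was not called lower in these cells, as given above. The part of either in the Nfkbia difference was not tested.

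In mature DC-like cells, Rel was 1.68 and 2.43 UMIs per 10000 in WT1 and WT2 and 2.88 and 3.06 in KO1 and KO2 in ndLN, without overlap but not called (0.43 ± 0.17, adjusted p = 0.579). Without KO1 it was called (0.61, adjusted p = 0.0428). In dLN, Tnfaip3 was 1.73 and 1.18 in WT against 2.50 and 2.55 in KO (0.42, adjusted p = 0.470), and Cd83 5.07 and 3.02 against 6.44 and 9.65 (0.65, adjusted p = 0.474). The last KO sample holds 16 cells. Without KO1, and so with KO2 the lone KO mouse, the dLN differences were 0.32 for Nfkb1, 0.43 for Tnfaip3 and −0.18 for Tnf. KO2 had no Tnf UMI in its 16 cells, whereas KO1 was at 0.456, above WT1 and WT2 (0.281 and 0.256). Summed immediate early levels in these dLN cells were 35.6 and 24.6 in WT1 and WT2 and 79.5 and 63.9 in KO1 and KO2. Their part in the differences was not tested. In pDC-like ndLN cells, Rel was 0.440 and 1.25 in WT against 1.36 and 1.15 in KO, so that the genotypes overlapped, and it was called without WT2 (0.65, adjusted p = 0.00451).

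In dLN lymphocytes, the sets below were picked because their genotypes did not overlap. With 2 mice a genotype, sets without overlap are common also where nothing differs, so they do not show a genotype difference. None was called, they went in both directions, and the share of all genes without overlap was not computed. Bcl3 in B-like dLN cells was 1.35 and 0.917 in WT1 and WT2 and 0.803 and 0.652 in KO1 and KO2 (−0.23, adjusted p = 0.999), and in CD4 T-like dLN cells 0.449 and 0.506 against 0.110 and 0.149 (−0.21, adjusted p = 1). Both sets were without overlap, and in ndLN the genotypes overlapped for both. Tnfaip3 in CD4 T-like dLN cells was 1.45 and 2.20 in WT and 1.18 and 0.879 in KO (−0.38, adjusted p = 1). The other sets were higher in KO. Tnfaip3 in B-like dLN cells was 0.207 and 0.198 in WT against 0.248 and 0.240 in KO. Nfkb2 in CD4 T-like dLN cells was 0.295 and 0.237 against 0.385 and 0.351. In CD8 T-like dLN cells, Relb was 0.455 and 0.408 against 0.527 and 0.530, and Tnf 0.171 and 0.174 against 0.231 and 0.216. Whether the KO minus WT difference itself differed between dLN and ndLN was tested for 61 pairs of gene and class, of which 0 were called by limma and 4 had an unadjusted p under 0.05 (lowest adjusted p = 0.970). Across the 17 combinations, the only gene of the 4 pathway lists called was the chemokine Ccl4, higher in KO cDC1-like ndLN cells (1.21, adjusted p = 0.00368).

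**Figure D5:**
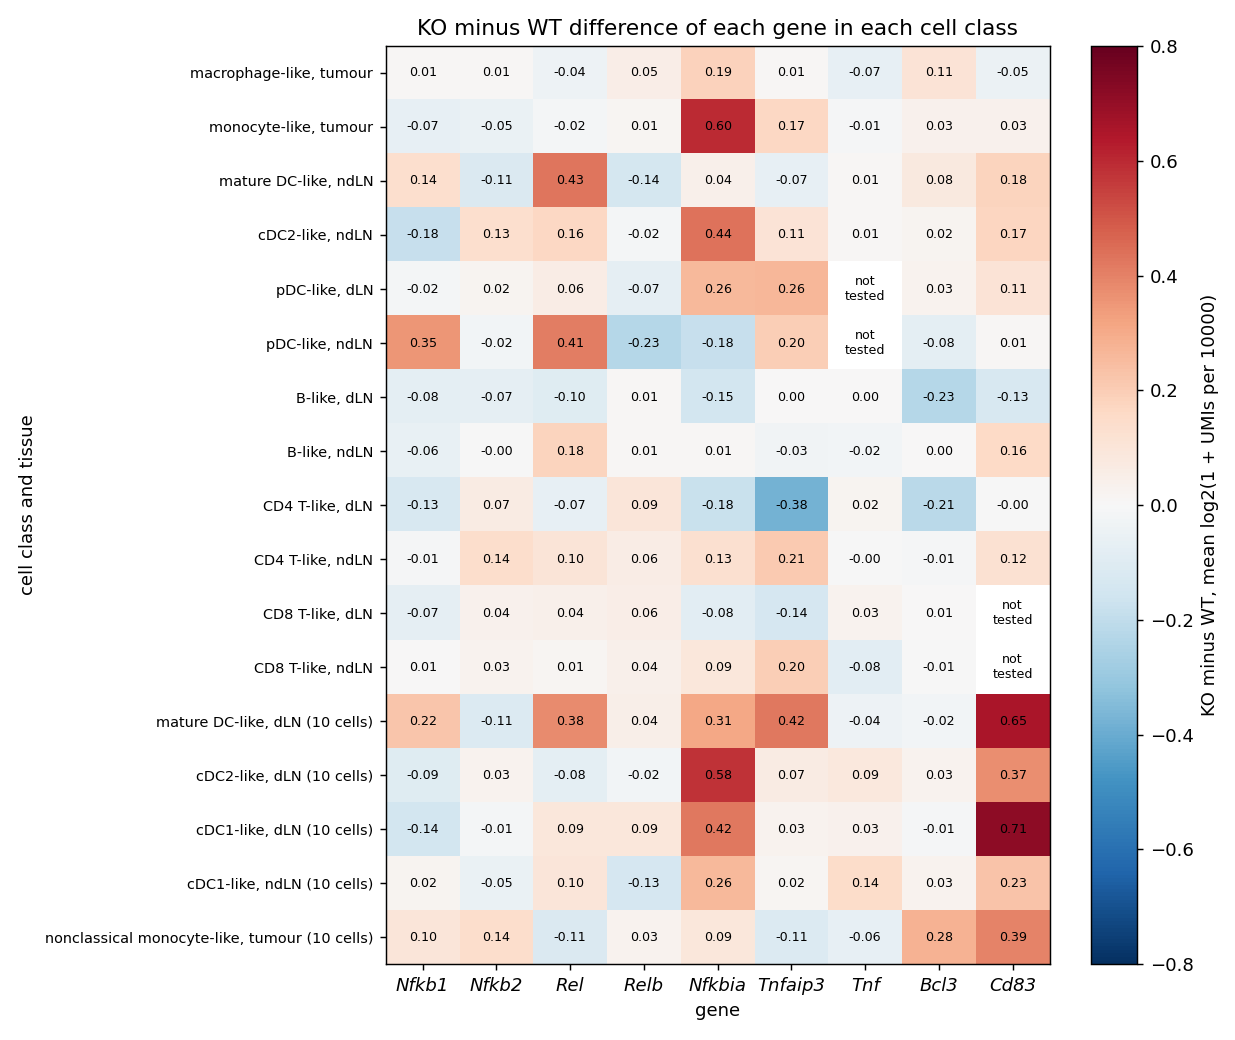
Each cell of the grid gives the KO minus WT difference in mean log2(1 + UMIs per 10000) for 1 gene in 1 class and tissue, coloured red where KO was higher and blue where WT was higher. Rows marked with 10 cells used the lower minimum. No value passed the adjusted threshold, and the 0.60 of Nfkbia in monocyte-like tumour cells had the lowest adjusted p (0.151).

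Across 77 samples of mouse, tissue and class, the genes whose mean log2 level was most like that of each member were listed by Pearson r over 11045 genes, as a description without a test. Relb went with Fscn1 (r = 0.97), Cacnb3 (0.97) and Socs2 (0.97), of which Fscn1 and Cacnb3 are markers of the mature DC-like gate. Nfkb2 went with Uap1 (0.92), Lrrk1 (0.86) and Relb (0.85). Rel and Cd83 were each other's nearest gene (0.84). Nfkb1 went with Nptn (0.79), with Cd209a (0.79), a marker of the cDC2-like gate, and with Sgk3 (0.78), and Bcl3 with Ubl3 (0.77). Nfkbia was nearest to Birc3 (0.74) and Traf1 (0.74), 2 genes of TNF-receptor signalling. Tnfaip3 (0.68 with Dnajc1) and Tnf (0.62 with Ppt2) had weaker nearest genes. The samples share mice, channels and class-wide depth, which enter every r.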

How the data were processed

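The authors deposited one matrix of natural log values, ln(1 + 10000 × UMIs / UMIs of the cell), for 12638 genes and 12458 cells, with a table that assigns each cell to a mouse and tissue. Cell Ranger 3.0.2 and the mm10 build are named in the submitters' processing notes. The values were turned back into counts, and 100% were whole UMIs within 0.01. Cells were gated on detected marker genes. The gate rule was set after marker levels were seen, the macrophage gate needs 30 UMIs per 10000, and no doublet caller was run. Per-mouse means of log2(1 + UMIs per 10000) from at least 20 cells were tested with limma 3.58.1 (trend, R 4.3.3) on genes with a UMI in at least 5% of cells of a compared class, with Benjamini-Hochberg adjustment at 0.05 over all tested genes. Class and tissue comparisons pooled genotypes and had mouse as a block, and KO minus WT had none and fitted all tissues of a class together. Fits were checked on simulated data. Limma draws each gene's spread towards a trend over all genes tested, and the SEs and p-values use that moderated spread. With 2 mice a genotype, they do not measure the spread of a gene's own few animals alone.

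Same-numbered mice shared a channel, per the labels, and their deviations correlated at −0.0850 to 0.631 over 12 class and tissue pairs. Alternatives were a pseudocount of 0.1, no filter, limma-voom on summed UMIs, cells thinned to 2000 UMIs, a gate with 1 more marker, other blocks, 10 cells, and each mouse left out. Dixon's 95% criterion was used to look for single mice that stand apart. The 10-cell comparisons were added after the data had been seen, as were limma-voom with total and with median ratio scaling, which replace a planned TMM scaling. That scaling was run and then left out, since it was meant for counts deposited as such and these were recovered from log values. All 9 genes were named whatever their test, with list genes past the threshold (at most 5 per direction by p) and the 3 most similar genes per member; Treg-like and single-sample values were picked out after they were seen. The members and lists were chosen with earlier results of these data known. Aligner settings were not stated in the labels, and no protein sequences were used.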

Additional observations from a re-analysis of the deposited data

Results flagged for a closer look

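Within-mouse differences in mean log2 level between 2 classes or tissues were screened for a mouse far from the other 3, over 106 sets of 4 mice, and 4 sets had such a mouse. Chance would mark about 5% of sets. For Nfkb2, cDC2-like minus pDC-like cells of ndLN gave 0.47 in KO1 against 0.14 to 0.17 in the others. For Nfkb1, dLN minus ndLN in pDC-like cells gave −0.47 in KO1 against 0.11 to 0.22. KO1 held 2.21 UMIs of Nfkb1 per 10000 in pDC-like ndLN cells, from 29 cells, and the other mice 0.870 to 1.02. For Nfkb1, mature DC-like minus cDC2-like cells of ndLN gave −0.32 in KO2 against −1.01 to −0.98 in the others. For Cd83, monocyte-like minus macrophage-like tumour cells gave 0.30 in KO2 against 0.07 to 0.10. All 4 are values of single KO mice, and their causes were not tested.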

How the results depend on the processing

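The number of the 9 genes called was within 1.5 times of its main value in 381 of 409 combinations of comparison and setting. All KO minus WT and all dLN minus ndLN comparisons had a main value of 0, and these count as unchanged wherever the setting also called 0. The share therefore says little about the comparisons with calls, whose changes are given below. No called difference changed sign, while Cd83 in cDC2-like minus cDC1-like dLN cells, not called at −0.02, was called at 0.41 by limma-voom with total scaling and at −0.56 under the stricter gate. Thinning moved 43 of 198 class levels by more than 1 SD between mice, and it changed the leading class for Tnf, Bcl3, Nfkbia (neutrophil-like, 19.4) and Tnfaip3 and the lowest for Relb (neutrophil-like), Bcl3, Tnfaip3 and Tnf. Thinning cells to 2000 UMIs left 1 call in mature DC-like minus cDC1-like ndLN cells, 0 in cDC2-like minus cDC1-like dLN cells, 1 in cDC2-like minus pDC-like ndLN cells, 5 in monocyte- minus macrophage-like cells, 0 in CD4 minus CD8 T-like dLN cells and 2 in tumour minus dLN CD8 T-like cells. A pseudocount of 0.1 gave 3 in cDC2-like minus pDC-like cells and 1 in dLN minus ndLN cDC2-like cells. Limma-voom with median ratio scaling gave 9 in mature DC-like minus cDC2-like ndLN cells, and with total scaling 6 and 7 in CD4 minus CD8 T-like cells of dLN and ndLN. The planned TMM scaling was left out. The stricter gate gave 2 in nonclassical minus monocyte-like cells. Without the detection filter, CD4 minus CD8 T-like cells had 1 call in dLN and 0 in ndLN, and 1 in ndLN with no replicate block. For KO minus WT, the channel as a replicate block gave 1 call in monocyte-like tumour cells and changed no other call of the 9 genes.

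Leaving out each mouse gave 0 to 1 calls for KO minus WT in monocyte-like, mature DC-like ndLN and pDC-like ndLN cells and 0 to 3 in mature DC-like dLN cells. It gave 2 to 5 in cDC2-like minus pDC-like, 1 to 3 in CD4 minus CD8 T-like ndLN, 0 to 1 and 0 to 2 in dLN minus ndLN B- and CD8 T-like cells, and 3 to 6 in tumour minus dLN CD8 T-like cells. The causes of these changes were not tested, apart from the fewer cells or samples that thinning and leaving out imply.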
